A study of Mus musculus with 8 samples.

Results

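Stra8, Zglp1, Dazl, Ythdc2 and Meioc, a set of genes that act when a fetal germ cell enters meiosis, were followed in E15.5 female and male germ cells of control embryos and of Snf5 CKO embryos, in which the gene of the SWI/SNF subunit SNF5 was deleted in germ cells. SWI/SNF is a complex that remodels chromatin. The 5 genes were chosen by name. Both deposited tables list 4 of them under their symbol and Meioc under its older symbol Gm1564, so that all 5 were found among the 11529 named genes tested in females and the 12279 tested in males. They were set against a merged locus named Dmpk,Six5 in the female table, which covers the position of Meiosin, the partner gene of Stra8.

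STRA8 and its partner MEIOSIN are transcription factors of meiotic prophase genes, and both respond to retinoic acid in the fetal ovary. ZGLP1, a nuclear zinc finger protein of the oogenic programme, lies downstream of BMP. DAZL is an RNA-binding protein that makes germ cells of both sexes competent for sexual differentiation. YTHDC2 is an RNA helicase that binds RNA carrying N6-methyladenosine and works with its partner MEIOC to bring down the mitotic programme as meiosis begins. In the fetal testis germ cells do not enter meiosis at this age but stop dividing, under the RNA-binding protein NANOS2.

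The RNA-Seq data comprised 8 libraries of germ cells at embryonic day 15.5, with 2 control and 2 Snf5 CKO libraries from each sex. All embryos carried the Oct4-EGFP transgene, by which the cells were sorted. Snf5 CKO embryos were Snf5fx/Δ with TNAP-Cre, a Cre inserted into the Alpl gene that recombines in primordial germ cells and leaves a minority of them unrecombined. Control samples combined embryos that were Snf5fx/+ or Snf5fx/Δ without Cre, or Snf5fx/+ with TNAP-Cre. Per the study's tables every control sample and every female Snf5 CKO sample pooled embryos, while male Snf5 CKO samples are listed with single mice. The first male Snf5 CKO sample has 2 such entries, and whether its library holds both mice is not stated. The labels give the strain as C57BL/6, while the study's methods describe a mixed background.

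Smarcb1, the symbol of Snf5 in the tables, was 85.3% lower in female Snf5 CKO than in control and 93.9% lower in male Snf5 CKO. The germ cell marker Ddx4 was between 203 and 565 FPKM in the 8 libraries, and markers of neighbouring cells were present at lower levels. Per the study's tables the purity of the sorted cells was in a similar range in control and Snf5 CKO of each sex. The summed level of 8 pre-granulosa markers was 9.02 and 12.6 FPKM in the female controls and 35.9 and 33.4 FPKM in female Snf5 CKO, where all 8 rose, and the defining marker Foxl2 was between 0.328 and 2.07 FPKM. In males 9 of 9 Sertoli markers rose, from a sum of 59.1 and 44.8 FPKM to 205 and 288 FPKM. Among them Sox9 was at 2.98 and 2.51 FPKM in control and 11.1 and 11.4 FPKM in Snf5 CKO. Over all genes, 26.9% in females and 21.0% in males were called higher in Snf5 CKO by the test given below. FPKM counts fragments per length of transcript and per fixed number of mapped fragments, so levels of different genes can be compared within a library, and the tables hold no read counts. In bulk samples, fewer cells of a type and less RNA per cell cannot be told apart.

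The promoters of Stra8, Zglp1, Dazl and Meioc are shown because these genes share a role but were read at very different levels. Each sequence runs from 250 bases before to 50 bases after the gene start, 5′ to 3′ along the gene (RefSeq, build GRCm38.p6). Capitals mark AGGTCA, a hexamer read by retinoic acid receptors, CACGTG, the E-box read by basic helix-loop-helix factors, or TCCCGC, letters read by E2F factors, on either strand.
Stra8, chr6:34920698-34920997, plus strand: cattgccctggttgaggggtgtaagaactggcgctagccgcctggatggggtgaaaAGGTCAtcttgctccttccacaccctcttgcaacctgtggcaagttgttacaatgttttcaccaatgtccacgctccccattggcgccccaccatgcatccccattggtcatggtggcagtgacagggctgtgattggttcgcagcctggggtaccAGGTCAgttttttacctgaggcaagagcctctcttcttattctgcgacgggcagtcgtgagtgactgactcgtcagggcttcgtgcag
Zglp1, chr9:21067044-21067343, minus strand: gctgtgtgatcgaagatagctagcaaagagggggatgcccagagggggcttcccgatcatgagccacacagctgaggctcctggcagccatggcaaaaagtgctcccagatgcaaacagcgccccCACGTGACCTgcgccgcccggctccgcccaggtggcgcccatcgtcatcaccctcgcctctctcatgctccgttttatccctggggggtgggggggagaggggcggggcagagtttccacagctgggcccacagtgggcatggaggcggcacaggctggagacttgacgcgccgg
Dazl, chr17:50293571-50293870, minus strand: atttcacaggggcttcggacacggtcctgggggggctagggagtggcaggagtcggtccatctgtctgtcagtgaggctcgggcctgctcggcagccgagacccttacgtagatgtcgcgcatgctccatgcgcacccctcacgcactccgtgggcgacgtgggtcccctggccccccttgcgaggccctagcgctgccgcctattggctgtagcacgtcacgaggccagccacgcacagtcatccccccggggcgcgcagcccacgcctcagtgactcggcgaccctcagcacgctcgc
Meioc, chr11:102665335-102665634, plus strand: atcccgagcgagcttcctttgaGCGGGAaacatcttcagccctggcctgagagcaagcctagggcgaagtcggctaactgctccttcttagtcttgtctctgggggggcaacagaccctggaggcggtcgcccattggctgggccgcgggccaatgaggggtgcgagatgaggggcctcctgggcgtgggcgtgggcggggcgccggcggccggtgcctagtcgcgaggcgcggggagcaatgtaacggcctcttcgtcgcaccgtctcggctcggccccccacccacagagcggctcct

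The Stra8 window held AGGTCA at 2 places, with first bases 194 and 38 bases before the start. In the Zglp1 window the capitals are a single run in which CACGTG, 125 bases before the start, shares letters with AGGTCA on the opposite strand, 121 bases before it. The Meioc window held TCCCGC on the opposite strand, 228 bases before the start, and the Dazl window held none of the 3. Among 32851 promoter windows of the same length, AGGTCA stood in 16.3%, CACGTG in 7.15% and TCCCGC in 20.0%. The G and C content was 55.7% for Stra8, 65.7% for Zglp1, 68.7% for Dazl and 68.3% for Meioc, against a median of 52.7% over all windows. A match of letters is a description of the sequence and no evidence of binding.

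To ask how the loss of SNF5 bears on each arm of meiotic entry, control and Snf5 CKO libraries were compared within each sex. In female germ cells Ythdc2 and Meioc fell, by 65.5% and 82.1%, as did the locus at the position of Meiosin, by 88.9%, while Stra8, Zglp1 and Dazl did not pass the test. In male germ cells Zglp1 fell by 71.8% and the other 4 did not pass. These calls were made with limma (two-sided) on log2(FPKM + 1) at a Benjamini-Hochberg adjusted p under 0.05. Over all genes tested, 34.6% were called lower and 26.9% higher in female Snf5 CKO, so 2 of 5 members lower stands near the background. In males 25.3% were called lower and 21.0% higher, against 1 of 5 members lower and none higher. With the replicate number as a block, which these calls left out, Zglp1 and Dazl in females and Stra8 and Dazl in males passed too. Under that block 8842 of 11529 genes tested passed in females and 9371 of 12279 in males. The 5689 male calls were 3764 without male control replicate 1 and 9371 with the replicate number as a block. The median fold change over all genes on the log2 scale, -0.13 in females and -0.07 in males, was moved by rescaling, by up to 0.15 in females and by -0.19 to 0.15 in males. With libraries rescaled to a common sum, 34% of the male calls were higher against 45.4% as deposited. No member changed direction under either rescaling.

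**Figure D1:**
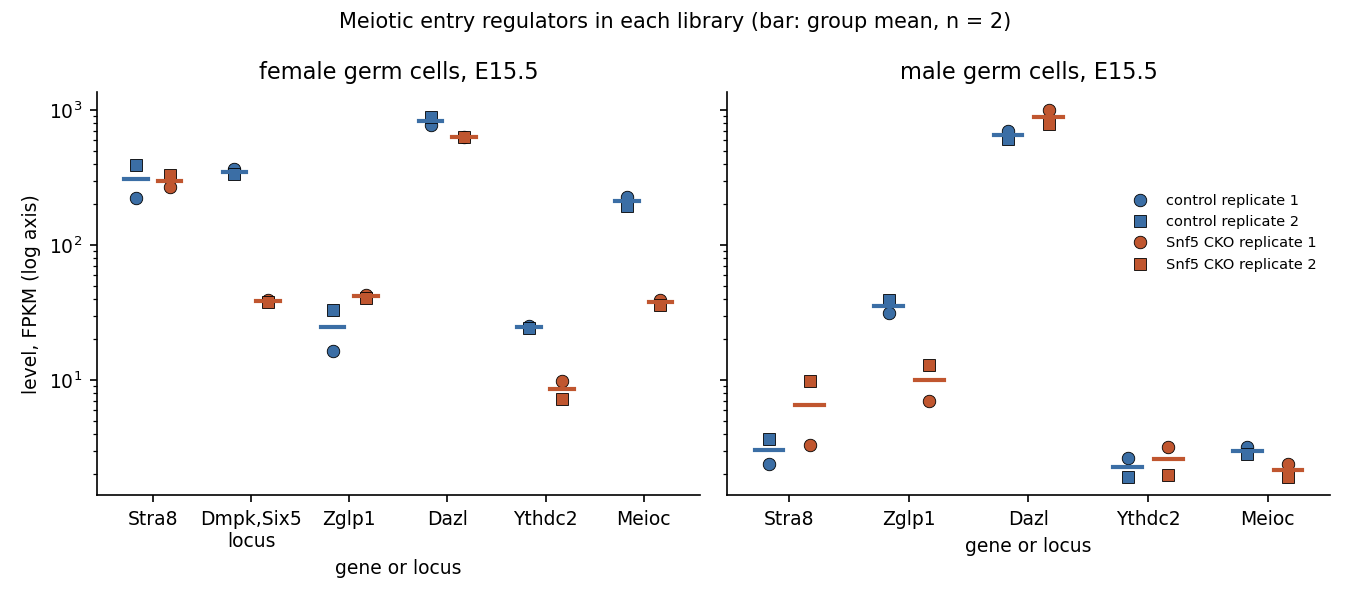
Level of each gene or locus in every library, in FPKM on a log axis, for female (left) and male (right) germ cells, with circles for replicate 1, squares for replicate 2 and bars for the mean of 2 libraries. In females the Dmpk,Six5 locus, Ythdc2, Meioc and Dazl lie lower in both Snf5 CKO libraries than in both controls, and in males Zglp1 and Meioc do. Zglp1 in females and Dazl in males lie higher in both. Of these, Dazl in both sexes, Zglp1 in females and Meioc in males did not pass the test. How many of all genes tested lie apart in this way was not counted.

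Stra8, the retinoic acid target whose product drives meiotic prophase genes together with MEIOSIN, lies on chromosome 6 of mm10 from 34920847 to 34939347 in the female table. It was at 225 and 393 FPKM in the female controls and at 269 and 330 FPKM in female Snf5 CKO. Both Snf5 CKO values lay between the controls, which themselves differed 1.75-fold. The log2 fold change was 0.00 (SE 0.31, adjusted p = 0.99), with a 95% interval of -0.73 to 0.74, so a change of about that size in either direction was not detectable with these libraries. Leaving out female control replicate 1 gave -0.40, and leaving out female Snf5 CKO replicate 2 gave -0.14.

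In male germ cells Stra8 was at 2.40 and 3.66 FPKM in control and at 3.30 and 9.83 FPKM in Snf5 CKO. The groups overlapped, and the high value came from Snf5 CKO replicate 2, 2.97 times replicate 1. The log2 fold change was 0.78 (SE 0.48, adjusted p = 0.234, 95% interval -0.44 to 2.0). With the replicate number as a block the adjusted p was 0.027, and without male Snf5 CKO replicate 1 the log2 fold change was 1.44 with an adjusted p of 0.0096. By level Stra8 stood above 97.0% of the genes tested in the female controls and above 19.9% in the male controls.

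Meiosin itself, Gm4969 in the GENCODE M21 annotation, lies on the minus strand of chromosome 7 from 19099046 to 19118368, and no row of the tables carries its name. The female locus named Dmpk,Six5 spans 19083849 to 19118606. Dmpk and Six5 are annotated on the plus strand, but of the 20 named loci nearest to this one in the order of the table, 19 are on the minus strand. The merged locus was at 365 and 335 FPKM in the female controls and at 39.5 and 38.1 FPKM in female Snf5 CKO. This is a 9.02-fold difference, with the replicates of each group close together, and a log2 fold change of -3.14 (SE 0.17, adjusted p = 9.7e-05, 95% interval -3.56 to -2.72). A row of the same span named Dmpk, among plus strand neighbours, stayed between 0.549 and 0.759 FPKM in all 4 libraries. A further row of that span, named Six5, rose from 0.472 and 0.543 FPKM in control to 2.61 and 2.78 FPKM in Snf5 CKO, by 1.30 on the log2 scale (adjusted p = 0.0011), so rows of this interval moved in opposite directions. The library kit does not mark strand, so reads of genes on opposite strands cannot be separated in this interval.

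In the male table the corresponding row, named Six5 and among 20 minus strand neighbours of 20, was at 2.83 and 2.09 FPKM in control and at 5.54 and 3.90 FPKM in Snf5 CKO. Both Snf5 CKO libraries were above both controls, in a table normalized apart from the female one. The log2 fold change was 0.72 (SE 0.24, adjusted p = 0.060), and with the replicate block the adjusted p was 0.0050. A lower row, also named Six5 but among plus strand neighbours, was at 0.820 and 0.524 FPKM in control and at 1.73 and 2.62 FPKM in Snf5 CKO, higher in the same libraries.

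Within a female library, the ratio of the Dmpk,Six5 locus to Stra8 does not depend on how that library was scaled. It was 1.62 and 0.853 in control and 0.147 and 0.116 in Snf5 CKO, a mean log2 difference of -3.18. Thus the merged locus and Stra8 were read at about the same level in control, and at a Stra8 excess in both Snf5 CKO libraries. How far the merged locus stands for Meiosin was not tested. The exact two-sided permutation test gave p = 0.333, the smallest that 2 against 2 libraries can give. The ratio of Stra8 to Dazl was 0.291 and 0.443 in control and 0.427 and 0.523 in Snf5 CKO, and these groups overlapped (exact permutation p = 0.667).

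Zglp1, the BMP-induced regulator, lies on chromosome 9 from 21062393 to 21067093 in both tables, on the minus strand, and overlaps the annotated gene Gm49373 on the same strand, so that reads of the pair could be shared. In female controls it was at 16.3 and 33.3 FPKM, and in female Snf5 CKO at 42.8 and 40.8 FPKM. Both Snf5 CKO libraries were above both controls, but the controls differed 2.04-fold, and the log2 fold change was 0.81 (SE 0.31, adjusted p = 0.058, 95% interval 0.07 to 1.56). The call depended on the handling: the adjusted p was 0.021 with the replicate block, 0.033 after rescaling to a common sum and 0.040 after median-of-ratios rescaling. Without female control replicate 2 the log2 fold change was 1.30 (adjusted p = 0.00025), without female control replicate 1 it was 0.32 (adjusted p = 0.318), and without female Snf5 CKO replicate 2 it was 0.85 (adjusted p = 0.010). The rise of the pre-granulosa markers goes along with these values, and its part in them was not tested.

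In male germ cells Zglp1 fell. It was at 31.3 and 39.4 FPKM in control and at 6.96 and 13.0 FPKM in Snf5 CKO. The groups were well apart, with 3.55 times as much in control as in Snf5 CKO. The log2 fold change was -1.78 (SE 0.32, adjusted p = 0.011, 95% interval -2.59 to -0.96), and it lay between -2.18 and -1.37 when each library was left out. Somatic markers moved in both directions in the same libraries. The 5 Leydig markers summed to 85.7 and 58.2 FPKM in control and to 19.2 and 15.1 FPKM in Snf5 CKO. Of these, 3 of 5 were called lower, against 25.3% of all genes, while the Sertoli markers rose as given above. The part of either in the Zglp1 values was not tested.

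Dazl, on the minus strand of chromosome 17 from 50279393 to 50293620 in the female table, had the highest level of the set in every library. It was at 771 and 888 FPKM in the female controls and at 630 and 631 FPKM in female Snf5 CKO. The groups did not overlap, and the log2 fold change was -0.39 (SE 0.26, adjusted p = 0.231, 95% interval -1.02 to 0.23). In male germ cells Dazl was at 697 and 606 FPKM in control and at 997 and 789 FPKM in Snf5 CKO. Here too the groups did not overlap, in the opposite direction, with a log2 fold change of 0.45 (SE 0.29, adjusted p = 0.260, 95% interval -0.30 to 1.20). For how many of all genes tested the groups do not overlap was not counted. With the replicate number as a block the adjusted p of Dazl was 0.0046 in females and 0.0011 in males. Dazl stood above 99.1% and 98.7% of the genes tested in the female and male controls, and above 98.6% and 99.0% in female and male Snf5 CKO.

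**Figure D2:**
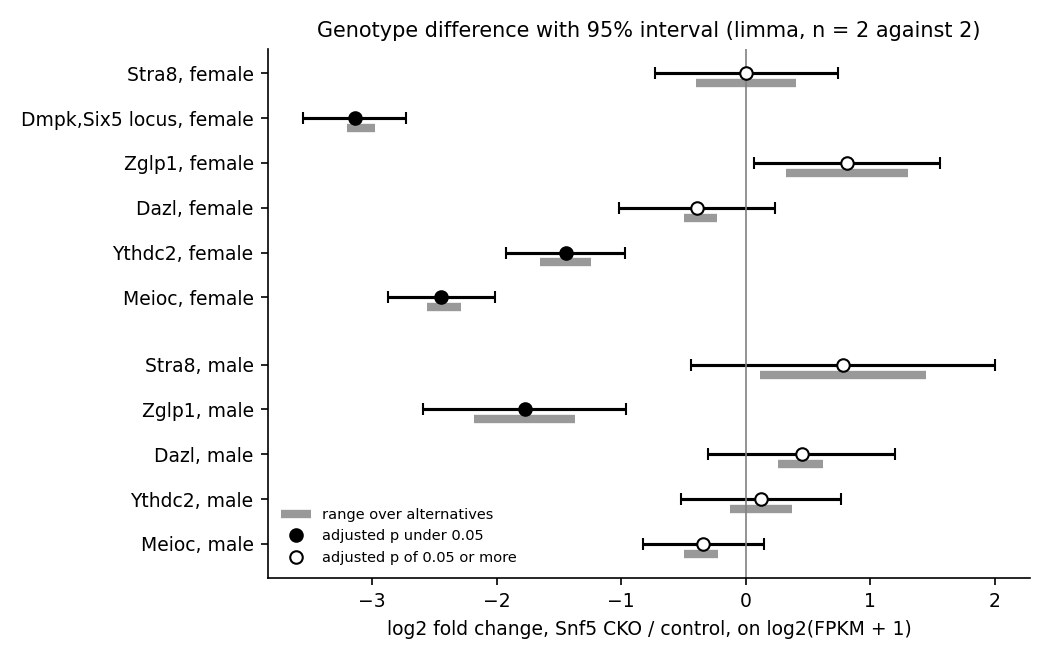
Log2 fold change of Snf5 CKO over control on log2(FPKM + 1), with its 95% interval from limma (2 libraries against 2) and, as a grey bar, the range over the alternative settings. Filled points passed at an adjusted p under 0.05, which in females were the Dmpk,Six5 locus at -3.14, Meioc at -2.44 and Ythdc2 at -1.45, and in males Zglp1 at -1.78.

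Meioc, the partner of YTHDC2 in holding germ cells in meiotic prophase, lies on the plus strand of chromosome 11 from 102664962 to 102682916 in the female table. It was at 228 and 193 FPKM in the female controls and at 39.5 and 36.0 FPKM in female Snf5 CKO. The groups were far apart and the replicates close, with 5.57 times as much in control. Meioc had a log2 fold change of -2.44 (SE 0.18, adjusted p = 0.00013, 95% interval -2.88 to -2.01), and its place by level went from above 95.6% of the genes tested to above 76.8%. In male germ cells Meioc was near the low end of the genes tested, at 3.17 and 2.81 FPKM in control and 2.41 and 1.91 FPKM in Snf5 CKO. Both Snf5 CKO libraries were below both controls, with a log2 fold change of -0.34 (SE 0.19, adjusted p = 0.197, 95% interval -0.82 to 0.14).

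Ythdc2, the helicase, lies on the plus strand of chromosome 18 from 44828500 to 44889861 in the female table. It was at 25.1 and 24.5 FPKM in the female controls and at 9.89 and 7.23 FPKM in female Snf5 CKO. The controls differed by a few percent, and both Snf5 CKO libraries were far below either of them. The log2 fold change was -1.45 (SE 0.20, adjusted p = 0.0011, 95% interval -1.93 to -0.97). Without moderation of the variances the adjusted p was 0.062. In male germ cells Ythdc2 was at 2.64 and 1.91 FPKM in control and 3.21 and 1.99 FPKM in Snf5 CKO. These groups overlapped, and the log2 fold change was 0.12 (SE 0.25, adjusted p = 0.716, 95% interval -0.52 to 0.77). It became -0.04 without male control replicate 2 and -0.12 without male Snf5 CKO replicate 1.

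The order of levels in the female controls ran from Dazl to the Dmpk,Six5 locus, Stra8, Meioc, Ythdc2 and Zglp1. The locus overlapped Stra8 in range, Stra8 overlapped Meioc, and Ythdc2 overlapped Zglp1. In female Snf5 CKO the order was Dazl, Stra8, Zglp1, the locus, Meioc and Ythdc2, and the only neighbours with overlapping ranges were the locus and Meioc. Zglp1, which was the lowest by a narrow margin in control, was then above the locus and Meioc. In the male controls Dazl and Zglp1 were followed at a distance by Stra8, Meioc and Ythdc2, which all lay between 1.91 and 3.66 FPKM, with Stra8 and Meioc overlapping. In male Snf5 CKO the order was Dazl, Zglp1, Stra8, Ythdc2 and Meioc, with overlap between Zglp1 and Stra8 and between Ythdc2 and Meioc.

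**Figure D3:**
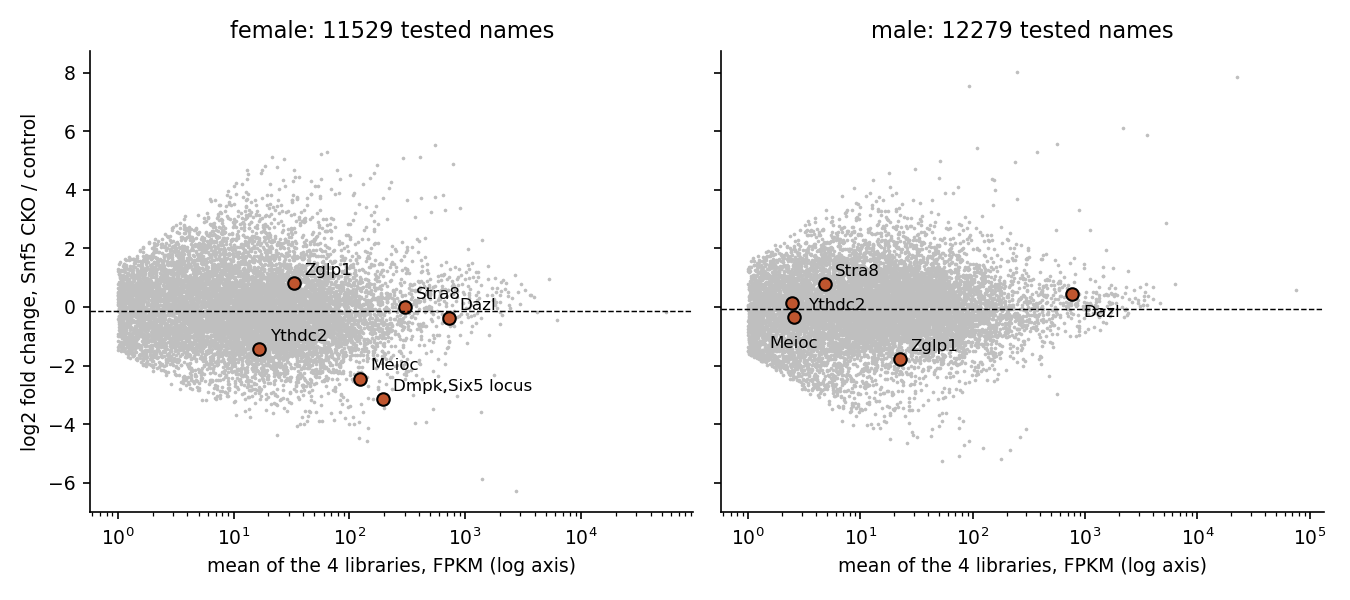
Log2 fold change of Snf5 CKO over control against the mean of the 4 libraries in FPKM (log axis) for all genes tested in females (left) and males (right), with the members in orange and the median of all genes as a dashed line. Dazl lies at the high end of level near the median fold change in both sexes. The Dmpk,Six5 locus and Meioc lie well below the median in females, at ranks 68 and 275 from the lowest of 11529 fold changes.

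Genes that work around the members were read from the same fit, and each count below stands against the shares of all genes given above, 34.6% lower and 26.9% higher in females and 25.3% lower and 21.0% higher in males. Of 27 meiotic prophase genes, listed by name, 23 fell, 2 rose and 2 did not pass in female Snf5 CKO. Their median log2 fold change was -2.61 against -0.13 over all genes. STRA8 with MEIOSIN acts on genes of this class, but which of the 27 they switch on was not tested. The most strongly lowered were Spata22 (-4.14), a recombination factor, the meiotic cohesin subunit Rad21l (-4.08), Mei1 (-3.99), needed for meiotic breaks, and Prdm9 (-3.99), which marks recombination sites. Prdm9, for example, was at 223 and 153 FPKM in control and at 9.99 and 11.5 FPKM in Snf5 CKO. Rec8, the meiotic cohesin subunit that also stands in the list of regulators, was among the 2 that rose, from 27.4 and 47.1 FPKM to 110 and 97.9 FPKM (adjusted p = 0.0028). In males 25 of the 27 were tested, of which 7 fell and 6 rose, with a median of -0.19 against -0.07 over all genes. These counts stand near the male shares of 25.3% lower and 21.0% higher, so they show no common direction of the list in males. Rec8 was among the 6 that rose, from 7.21 and 8.59 FPKM in male control to 23.4 and 30.8 FPKM in male Snf5 CKO (log2 fold change 1.65). The genes named next are among the 7 that fell. Sycp3, of the synaptonemal complex axis, went from 189 and 263 FPKM in male control to 33.0 and 46.0 FPKM in male Snf5 CKO (log2 fold change -2.49, adjusted p = 0.0030), and Spata22 (-2.78), Sycp2 (-2.43) and Rad21l (-2.21) fell as well.

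Mitotic cell cycle messages, the class that YTHDC2 and MEIOC bring down, went the other way. In female Snf5 CKO 10 of 12 rose, with a median log2 fold change of 2.02, and the mitotic cyclin Ccnb1 went from 13.6 and 11.7 FPKM to 248 and 251 FPKM. The kinase Plk1 (2.89) and the G1 cyclin Ccnd3 (2.75) rose as well, while the S phase cyclin Ccne2 fell (-2.51). In males 12 of 12 rose, with a median of 1.59, led by Ccne1 (2.75), Plk1 (2.34), Mki67 (2.28), a marker of cycling cells, and Ccnd1 (2.03). With male libraries rescaled to a common sum, 7 of the 12 passed and the median was 1.44. In the same Snf5 CKO libraries 8 of 8 pre-granulosa markers rose in females and 9 of 9 Sertoli markers in males, while 3 of 5 Leydig markers fell in males. The part of these markers in the cell cycle values was not tested. Ythdc2 and Meioc, set beside these messages, had fallen in females and had not passed the test in males.

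In the m6A RNA pathway, 9 of 15 genes fell and 1 rose in female Snf5 CKO (median -0.73), where 34.6% of all genes were called lower. The largest differences were in Rbm46 (-1.70), an RNA-binding partner of YTHDC2 and MEIOC, the demethylase Alkbh5 (-1.48) and the methyltransferase subunits Zc3h13 (-1.14) and Virma (-1.09). Rbm46 was at 38.5 and 45.4 FPKM in control and at 12.7 and 11.7 FPKM in Snf5 CKO. In males 2 of 15 fell, the reader Ythdf1 (-1.07) and the methyltransferase Mettl3 (-0.88), and 2 rose, among them the reader Ythdf2 (0.69), both counts under the 25.3% and 21.0% of all genes. The other gene named by its size, Virma, was at -0.59 and did not pass (adjusted p = 0.160). Without male control replicate 1, and likewise without male Snf5 CKO replicate 2, none of the 15 passed, and with the replicate block 7 fell and 3 rose.

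Of 12 other regulators around meiotic entry, 10 were tested in females, where 7 rose and 2 fell (median 2.30). The RNA-binding protein genes Dnd1 (4.39), Lin28a (3.24) and Nanos3 (2.82) and the transcription factor gene Dmrt1 (2.80) rose most. Dnd1 was at 4.94 and 8.81 FPKM in control and at 141 and 179 FPKM in Snf5 CKO. In males 11 were tested, of which 4 fell and 4 rose (median -0.40). Nanos2, which holds male germ cells out of meiosis, went from 61.2 and 71.9 FPKM to 7.57 and 11.9 FPKM (-2.68, adjusted p = 0.0026), and Nanos3 (-2.16) and Dnd1 (-1.78) fell too, while the DNA demethylase gene Tet1 rose (1.82). With the replicate block 7 of the 11 fell. Cyp26b1, which breaks down retinoic acid, was under 1 FPKM in all 8 libraries.

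Among 23 genes of retinoic acid and BMP input, upstream of Stra8 and Zglp1, 18 were tested in each sex. In female Snf5 CKO 12 rose and 2 fell (median 1.15), and among those that rose were the BMP target Msx2 (2.69), the receptor Rarg (2.30) and the BMP type I receptor Acvr1 (2.12). Msx2 was at 7.33 and 9.26 FPKM in control and at 59.6 and 57.9 FPKM in Snf5 CKO. In male Snf5 CKO 6 rose and 4 fell (median 0.23). With male libraries rescaled to a common sum, 3 rose and 4 fell (median 0.07). The BMP target Id3 went from 11.7 and 15.7 FPKM to 240 and 352 FPKM (4.33), and Msx1 rose as well (1.49), while the retinoic acid carriers Crabp2 (-3.67) and Crabp1 (-2.67) fell. Somatic markers moved in the same Snf5 CKO libraries, and their part in these values was not tested.

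**Figure D4:**
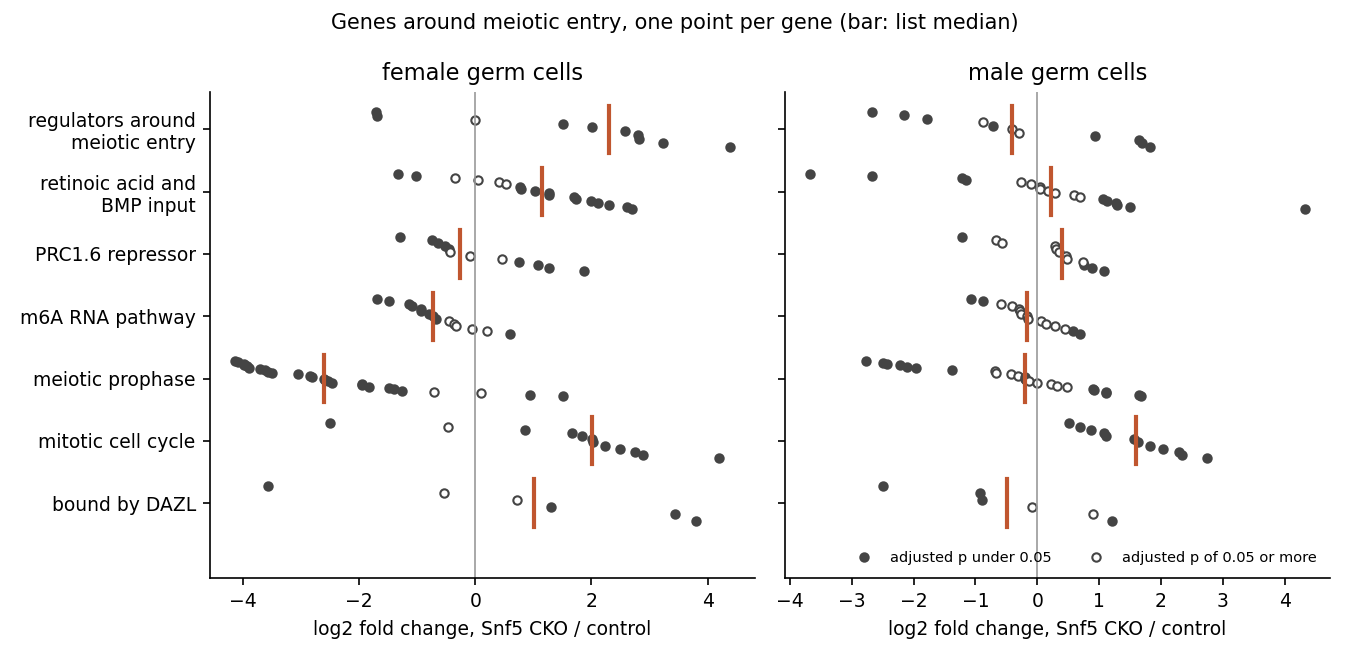
Log2 fold change of Snf5 CKO over control for each tested gene of 7 lists around meiotic entry, in females (left) and males (right), with filled points for an adjusted p under 0.05 and an orange bar at the list median. The meiotic prophase list has its median at -2.61 in females and -0.19 in males, while the mitotic cell cycle list has it at 2.02 and 1.59.

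Of 6 messages known to be bound by DAZL, 3 rose and 1 fell in female Snf5 CKO, a list too short to read against the 26.9% and 34.6% of all genes. The pluripotency factors Sall4 (3.80) and Sox2 (3.44) and the genome defence gene Tex19.1 (1.29) rose, and Sycp3, also a member of the prophase list, fell (-3.58), from 2667 and 2445 FPKM to 180.1 and 252 FPKM. In males, where 25.3% of all genes were lower, 3 fell, among them Sycp3 and the germ cell helicase Ddx4 (-0.93), and Sox2 rose (1.21), while Suz12, at 0.90, did not pass (adjusted p = 0.10). With any 1 of the 4 male libraries left out, 1 of the 6 was still called lower.

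Over the 8 libraries, the genes whose pattern was most like that of each member were found by the Euclidean distance of log2(FPKM + 1), centred within each table, among 10472 genes tested in both. Nearest to Stra8 were Hist1h2bp (distance 0.397) and Ndufa5 (0.492), and nearest to Zglp1 were Rpl39l (0.415) and Gpsm3 (0.507). Rnf128 (0.209) and Rapgef1 (0.228) were nearest to Dazl. For Ythdc2 the nearest were Herc2 (0.109) and Simc1 (0.189), and for Meioc Iqcb1 and Hectd3 (0.235 each). The libraries share tables and normalization, so these distances describe likeness in these samples only.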

How the data were processed

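RNA of sorted germ cells had been amplified with a SMART-Seq kit, made into Nextera libraries, which do not mark strand, and sequenced paired-end. Per the study's methods the authors used Tophat for mapping and Cufflinks for quantification on mm10, and made 1 table per sex. The submitters' processing notes list TopHat2 2.2.1 and Cuffdiff 2.1.1, and the version of the gene annotation is not given in the sources used here. The values deposited by the authors are FPKM, and the confidence bounds beside them were not used. Total depth is unknown. Among loci under 0.1 FPKM the most common ratio of control replicate 1 to the other libraries, which tracks relative depth, was 1.25 to 2.44 in females and 0.733 to 1.21 in males, with a second common ratio of 0.631 to 2.48 in females and 1.2 to 1.9 in males, so that relative depth is not settled.

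Unnamed loci (4737 of 29018 in females, 6272 of 30216 in males) were left out, and of several loci with 1 name the one highest in mean FPKM was kept. Table starts are counted from 0, so 1 was added. As the tables had been normalized one by one, each sex had its own fit, made with limma 3.58.1 in R 4.3.3 (lmFit, eBayes with trend, log2(FPKM + 1), mean of at least 1 FPKM over 4 libraries, Benjamini-Hochberg over all genes tested), after a test on simulated data. Fold changes on this scale understate those of low genes. With 2 libraries against 2, the exact permutation test of a single value cannot go below p = 0.333.

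Replicate numbers are shared across groups. The labels give the raw files of replicate 1 of all groups 1 flow cell and lane code and those of replicate 2 another naming style, and the deviations of replicate 2 from replicate 1 in control and Snf5 CKO correlated across genes at 0.500 in females and 0.607 in males. The number was therefore taken as a mark of a shared run.

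The members and the lists of genes were chosen with earlier results of these data known. From each list and sex the 4 tested genes of largest absolute log2 fold change were named, except 1 that is not reported here; Rec8, in 2 lists, and further values were chosen after they had been seen. Meioc was matched through its older symbol in RefSeq, from which the promoters were also taken. Alternatives were other pseudocounts, filters, scalings and variance models, loci of status OK alone, loci summed, the replicate block and each library left out.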

Additional observations from a re-analysis of the deposited data

Results flagged for a closer look

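Zglp1 and Dazl each differed between genotypes in opposite directions in the 2 sexes, with every library of the Snf5 CKO group on one side of every control library of that sex. For Zglp1 the log2 fold change was 0.81 in female Snf5 CKO, which did not pass the limma test (adjusted p = 0.058), and -1.78 in male Snf5 CKO, which did (adjusted p = 0.011). For Dazl it was -0.39 in females and 0.45 in males, and neither passed (adjusted p = 0.231 and 0.260). With the replicate number as a block Dazl passed in both sexes (adjusted p = 0.0046 in females and 0.0011 in males) and so did Zglp1 in females (adjusted p = 0.021). Under that block 8842 of 11529 genes tested passed in females and 9371 of 12279 in males. The difference between the sexes was not tested, because the tables of the sexes were normalized separately. How many of all genes show the same opposite pattern was not counted, so it cannot be called particular to Zglp1 and Dazl.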

How the results depend on the processing

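In females the falls of Meioc and of the Dmpk,Six5 locus passed under all 14 alternatives, with log2 fold changes of -2.56 to -2.28 and -3.20 to -2.98. Without moderation of variances Ythdc2 in females stayed at -1.45 (adjusted p = 0.062) and Zglp1 in males at -1.78 (adjusted p = 0.132), and both passed under the other 13. The same setting gave 2432 calls in females in place of 7099, and 836 in males in place of 5689.

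With the replicate block, calls numbered 8842 of 11529 genes tested in females and 9371 of 12279 in males. Among them were Zglp1 (0.81) and Dazl (-0.39) in females and Stra8 (0.78) and Dazl (0.45) in males. Their adjusted p by limma was 0.021, 0.0046, 0.027 and 0.0011. The block changed no other call among the members. Rescaling to a common sum gave Zglp1 in females 0.84 (adjusted p = 0.033) and median-of-ratios rescaling 0.97 (adjusted p = 0.040).

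With each library left out in turn, calls ranged from 6038 to 6817 in females and from 3764 to 4789 in males. The log2 fold changes ranged, in females, from -0.40 to 0.40 for Stra8, with -0.40 without control replicate 1 and -0.14 without Snf5 CKO replicate 2, from 0.32 to 1.30 for Zglp1, from -0.49 to -0.29 for Dazl, from -1.65 to -1.24 for Ythdc2, from -2.56 to -2.33 for Meioc and from -3.20 to -3.08 for the locus. In males they ranged from 0.11 to 1.44 for Stra8, from -2.18 to -1.37 for Zglp1, from 0.28 to 0.62 for Dazl, from -0.12 to 0.37 for Ythdc2, with -0.04 without control replicate 2 and -0.12 without Snf5 CKO replicate 1, and from -0.45 to -0.23 for Meioc. The lone sample of an arm was then assumed to vary like the other group. The log2 difference of the ratio of the locus to Stra8 ranged from -3.64 to -2.71 and that of Stra8 to Dazl from 0.093 to 0.70, an alternative chosen after seeing the data. The cause of these shifts was not tested. A mean of at least 5 FPKM left no value for Stra8, Ythdc2 and Meioc in males. Without counts, detection limits could not be given.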

Other observations

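The PRC1.6 complex is a repressor that binds germline genes, meiotic entry genes among them, through E2F6 and MGA with MAX. In female Snf5 CKO, 5 of its 12 genes tested fell and 4 rose, by limma, near the 34.6% lower and 26.9% higher over all genes, so the counts say nothing particular to the complex. E2f6 rose from 7.12 and 4.91 FPKM to 26.6 and 22.4 FPKM (log2 fold change 1.88), and Max (1.27) and Ring1 (1.08), a ubiquitin ligase, rose too, while Mga fell (-1.29), from 34.7 and 25.2 FPKM to 14.8 and 8.86 FPKM. The number lower was between 1 and 3 with each library left out, the 1 being without female Snf5 CKO replicate 2. In male Snf5 CKO, 1 of the 12 fell, Wdr5 (-1.21), and 3 rose, Tfdp1 (1.08), L3mbtl2 (0.89) and Rnf2 (0.75), against 25.3% lower and 21.0% higher over all genes. With the replicate block the male numbers were 3 and 9. Without male control replicate 2, and after rescaling to a common sum, none of them was called higher.

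Markers of the germ cells themselves also moved. The counts here stand against 34.6% of all genes lower and 26.9% higher in females, and 25.3% lower and 21.0% higher in males. Of 7 germ cell markers, 4 rose and 2 fell in female Snf5 CKO. Dppa3, of early germ cells, went from 41.2 and 61.3 FPKM to 1406 and 1633 FPKM, and Pou5f1, whose promoter drives the EGFP used for the sort, went from 8.63 and 16.7 FPKM to 295 and 333 FPKM. In male Snf5 CKO, 5 of the 7 fell and none was called higher, with the piRNA pathway genes Tdrd1 at -3.91 and Mael at -2.97. Other somatic markers were few. In females 4 of 5 Sertoli markers tested rose, Nr5a1 and the 3 that are also pre-granulosa markers, Amhr2, Gata4 and Wt1, the highest in Snf5 CKO being Amhr2 at 6.48 and 8.0 FPKM, while Sox9, Amh, Dhh and Cldn11 were not among the genes tested, and 1 of 2 Leydig markers rose, Insl3, listed in a locus merged with Jak3. In males 3 of 5 pre-granulosa markers tested rose, again Amhr2, Gata4 and Wt1, which are also Sertoli markers, and Rspo1 fell (-1.20, adjusted p = 0.014). Of the blood and endothelial markers, 1 was tested in females and did not pass, and 3 were tested in males, of which Alas2 fell (-0.61).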
